A study of Diospyros kaki with 21 samples.

Results

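The comparison described here is that of 'Jingmianshi' persimmon fruit (Diospyros kaki, an astringent cultivar) treated with high CO2 and 1-MCP (CO2+1-MCP) with fruit treated with high CO2 alone (CO2), both sampled at 1 d. It uses 6 of the 21 libraries of the series, 3 per group (A, B and C), chosen by their treatment and day. Mature fruit of both groups, and those of the control without either gas (CK), were kept in air-tight containers for 1 d and then moved to air, and RNA was taken from the flesh. The methods state 3 biological replicates, and how many fruit each holds is not known here. The CK libraries at 1 d and the groups at 4 d of storage are used only where named.

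Ethylene is made from S-adenosylmethionine by ACC synthase and ACC oxidase. It binds receptors that otherwise keep the kinase CTR1 active. Binding releases EIN2 and the EIN3/EIL factors, which switch on ERF genes. 1-MCP occupies the receptors and keeps ethylene from acting. In climacteric fruit this delays softening, in which pectin, xyloglucan and cellulose of the cell wall are loosened or degraded. High CO2 removes astringency from persimmon through anaerobic metabolism, and softening can follow. The question addressed is which transcripts differed already at 1 d when ethylene perception was blocked during the CO2 treatment.

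Few or no unigenes passed the threshold used, depending on the fit. Of 56191 unigenes tested, edgeR's quasi-likelihood test called 0 at an adjusted p below 0.05 and a fold above 5 (0.0% of those tested), and the lowest adjusted p was 0.194. Before adjustment 4167 unigenes had a p below 0.05, 1747 of them higher in CO2+1-MCP (3.11% of those tested) and 2420 lower (4.31%). DESeq2 called 291 on the same libraries (0.518%). A fit of all 7 groups, which shares the spread over 21 libraries, called 36, of which 16 were higher and 20 lower (0.0396%). The median log2 fold change of all unigenes tested was -0.01. By unadjusted counts, several lists had more members higher in CO2+1-MCP than the background, among them ACC oxidases (36.0%), chitinases and thaumatins (38.2%), pyruvate decarboxylases (26.7%) and polygalacturonases (14.1%). Lists with more members lower included unigenes with chloroplast (53.7%) and non-plant hits (32.4%), GH9 endoglucanases (19.2%), pectate lyases (18.8%), pectinesterase inhibitors (18.5%) and NAC factors (11.5%). The GH9 endoglucanases were not lower as a group. Their 19.2% stands for 5 of 26 unigenes, 7.69% were higher, and their median log2 fold change was 0.15.

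Total counts were 17970406, 17239689 and 14644843 in CO2 A, B and C, and 16582724, 17183665 and 19380375 in CO2+1-MCP A, B and C. A count was found for 112425 unigenes in CO2 A and 113192 in CO2+1-MCP B, against 128894 to 138480 in the other 4 libraries. These 2 libraries are in opposite groups, and list counts without both are given beside most lists. The unigenes come from a de novo assembly without a genome, so no chromosomal position is given. Of 261970 unigenes, 147691 had a hit in the NR protein database and 105035 a Pfam domain. Neighbouring cluster numbers with the same hit may be pieces or copies of 1 gene that divide its reads, so the values of single unigenes in such families are uncertain.

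ACC oxidase carries out the final step of ethylene synthesis, and its unigenes were the ethylene-related group with the most members higher in CO2+1-MCP. Of 41 unigenes in the list 25 were tested, 9 of them higher at an unadjusted p below 0.05 and 1 lower. That is 36.0% higher against 3.11% of all unigenes, with a median log2 fold change of 0.56 against -0.01. None passed edgeR's adjusted test, in which their lowest adjusted p was 0.407, while DESeq2 called 6 of the 25 at any fold, all higher (0.559% of all unigenes were called higher and 0.883% lower by DESeq2 at any fold). Without CO2 A and CO2+1-MCP B the unadjusted counts were 10 higher and 1 lower. The FPKM of all members summed to 8775, 8110 and 7190 in CO2 A, B and C and to 11586, 12273 and 13461 in CO2+1-MCP. The groups did not overlap, and both lay far above CK at 1 d, where the sums were 989, 830 and 905.

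The most abundant ACC oxidase unigene, Cluster-16487.134131 (a partial sequence with a persimmon hit), was at 1988, 1775 and 1606 FPKM in CO2 A, B and C. It was at 2747, 2842 and 2818 FPKM in CO2+1-MCP A, B and C. All 3 CO2+1-MCP libraries were above all 3 CO2 libraries. The means were 1790 ± 191 and 2802 ± 49.2 FPKM (SD, n = 3), a log2 fold change of 0.77 (SE 0.18, adjusted p of 0.407 in edgeR with 6 libraries, 0.728 with all 7 groups and 0.00367 in DESeq2). Cluster-16487.134137, also with a persimmon ACC oxidase hit but without a Pfam domain, was at 42.4 to 49.0 FPKM in CO2 and 69.6 to 92.5 in CO2+1-MCP (log2 fold change 0.88, SE 0.22). Cluster-16487.134145 was at 4.72 to 6.15 FPKM in CO2 and 7.44 to 10.1 in CO2+1-MCP (log2 fold change 0.70, SE 0.26). These 3 showed one pattern at levels that differed widely, and their numbers lie close together. A different pattern was seen for Cluster-16487.161351, which was at 56.9 to 69.3 FPKM in CK, 2.80 to 4.39 in CO2 and 1.88 to 4.03 in CO2+1-MCP. The CO2 treatments overlapped, both below CK.

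The other ACC oxidase unigenes with a persimmon hit and a mean of at least 1 FPKM overlapped between the treatments. Cluster-16487.134129, with only 52 and 86 counts over the groups, was at 459 to 688 FPKM in CO2 and 657 to 862 in CO2+1-MCP. Cluster-16487.75502, Cluster-16487.29840 and Cluster-16487.72821 were between 7.94 and 38.2 FPKM in all 6 libraries. The low ones, Cluster-16487.134123, Cluster-16487.134134, Cluster-16487.144435 and Cluster-16487.36273, were between 0.62 and 2.44 FPKM. Of these, Cluster-16487.134134 and Cluster-16487.36273 had too few counts to be tested. Both of them and Cluster-16487.134123 carry the Pfam domains PF00097 and PF13639, but not PF03171, the domain of Cluster-16487.134131. Their ACC oxidase name rests on the NR hit only.

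**Figure D1:**
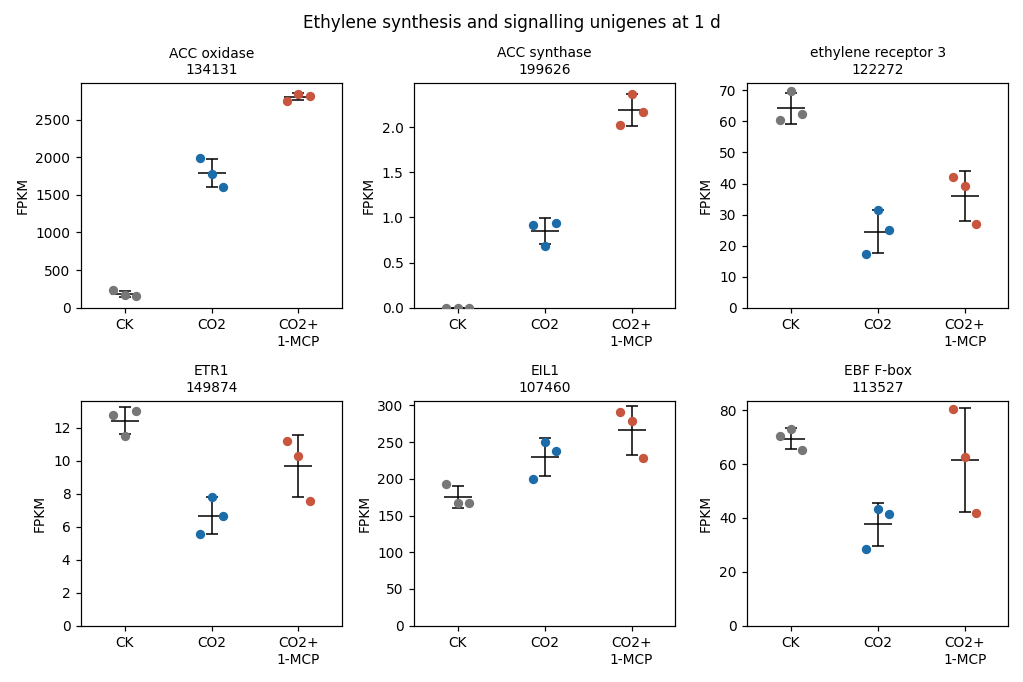
FPKM at 1 d of 6 ethylene-related unigenes in CK, CO2 and CO2+1-MCP (points, libraries A, B and C from left to right; bars, mean and SD, n = 3; linear axes from 0; numbers are those of the clusters). ACC oxidase was between 2747 and 2842 FPKM with CO2+1-MCP and between 1606 and 1988 with CO2, whereas EIL1 overlapped between the treatments.

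ACC synthase makes ACC, the immediate precursor of ethylene, and its unigenes were scarce in all libraries. Of 17 unigenes 4 were tested, and 1 was higher at an unadjusted p below 0.05. That was Cluster-16487.199626, at 0.92, 0.68 and 0.94 FPKM in CO2 A, B and C and 2.02, 2.37 and 2.17 in CO2+1-MCP. The libraries did not overlap (log2 fold change 1.41, SE 0.35, edgeR's adjusted p = 0.428), and it was listed at 0 in all 3 CK libraries at 1 d. The persimmon ACC synthase Cluster-16487.5077 was at 1.09 to 1.27 FPKM in CO2 and 0.63 to 1.74 in CO2+1-MCP, and Cluster-16487.174151 had 8 counts in each group. S-adenosylmethionine synthases, which feed the pathway, had 16 of 44 unigenes tested, with 0 higher and 2 lower at an unadjusted p below 0.05 (0 and 1 of 14 without CO2 A and CO2+1-MCP B). The most abundant of them, Cluster-16487.115385, was at 373 to 626 FPKM in CO2 and 412 to 814 in CO2+1-MCP. Its libraries overlapped.

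The receptors are the direct target of 1-MCP, and some of them follow ethylene in their own transcription in other fruit. Of 16 receptor unigenes 9 were tested, with 1 higher and 0 lower at an unadjusted p below 0.05 and a median log2 fold change of 0.11. The counts were 0 higher and 0 lower, with a median of 0.35, without CO2 A and CO2+1-MCP B. The most abundant, Cluster-16487.122272 (ethylene receptor 3), was at 17.3, 31.4 and 24.9 FPKM in CO2 and 42.1, 39.2 and 27.0 in CO2+1-MCP. The C library of CO2+1-MCP lay within the range of CO2 (log2 fold change 0.61, SE 0.27, edgeR's adjusted p = 0.69), and all 6 values were below the 60.6 to 69.8 FPKM of CK. Cluster-16487.149874 (ETR1) was at 5.56, 7.82 and 6.63 FPKM in CO2 and 11.2, 10.3 and 7.58 in CO2+1-MCP, and again the C library overlapped (log2 fold change 0.59, SE 0.24, edgeR's adjusted p = 0.66). Its CK values, 11.5 to 13 FPKM, were above every CO2 and CO2+1-MCP library.

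The other receptor unigenes were below receptor 3 in level. Cluster-16487.69986 was at 11.9 to 15.3 FPKM in CO2 and 12.3 to 15.8 in CO2+1-MCP. Cluster-16487.69985, next to it, was at 10.9 to 16.3 and 12.9 to 21.7 FPKM. Cluster-16487.113790 was at 3.53 to 6.05 FPKM in CO2 and 3.41 to 4.15 in CO2+1-MCP, and the groups overlapped in all 3. Cluster-16487.122274, a low unigene with a receptor 3 hit, was at 0.31 to 0.65 FPKM in CO2 and 0.80 to 1.52 in CO2+1-MCP without overlap (log2 fold change 1.22, SE 0.60, edgeR's adjusted p = 0.72). Cluster-16487.69984 had 2 counts, both in CO2+1-MCP A, and was not tested. The summed FPKM of all receptor unigenes was 56.3, 77.5 and 66.7 in CO2 and 123, 94.3 and 67.8 in CO2+1-MCP, against 117 to 128 in CK.

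Between the receptors and the ERFs edgeR and DESeq2 called 0 unigenes after adjustment. CTR1, EIN2 and RTE1 unigenes (18 of 40 tested) had a median log2 fold change of -0.44, with 0 higher and 0 lower at an unadjusted p below 0.05. EIN3/EIL unigenes (4 of 5 tested) all had log2 fold changes above 0, with a median of 0.32, and 0 were below an unadjusted p of 0.05. The main EIL1 unigene, Cluster-16487.107460, was at 200, 250 and 238 FPKM in CO2 and 291, 279 and 228 in CO2+1-MCP, so that the groups overlapped. EBF proteins are F-box proteins that send EIN3 to degradation. Cluster-16487.113527 was at 28.4 to 43.2 FPKM in CO2 and at 80.3, 62.7 and 41.7 in CO2+1-MCP A, B and C (log2 fold change 0.76, SE 0.28, edgeR's adjusted p = 0.628), while Cluster-16487.123321 was at 89.2 to 138 and 82.2 to 123 FPKM.

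AP2/ERF factors are the largest family at the end of the pathway. Of 420 unigenes 211 were tested, with 6 higher (2.84%) and 11 lower (5.21%) at an unadjusted p below 0.05, near the shares of all unigenes, and a median log2 fold change of 0.00. Leaving out CO2 A and CO2+1-MCP B gave 16 higher and 11 lower of 217. DESeq2 called 3 higher and 5 lower of the 211 at any fold, against 0.559% and 0.883% of all unigenes. The most abundant, Cluster-16487.32289 (ethylene response factor 10), was at 1749, 2214 and 2162 FPKM in CO2 and 1609, 1353 and 1979 in CO2+1-MCP. It was at 4.98 to 9.5 FPKM in CK, so that the difference between CO2 treatments and air was far wider than that between the CO2 treatments, whose log2 fold change was -0.28 (SE 0.18). Among NR descriptions of this family, ethylene response factor 19 (1 unigene) was picked after its values were seen. Its counts relative to the library total (CPM) were 10.7, 7.37 and 9.01 in CO2 A, B and C and 0.603, 0.757 and 2.53 in CO2+1-MCP, against 2.7 to 4.13 in CK. That is a log2 fold change of -2.77 (SE 0.50), with an adjusted p of 0.165 in edgeR with 6 libraries, 0.0425 in edgeR with all 7 groups and 3.96e-05 in DESeq2.

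Ripening regulators were read as NAC, MADS-box and SBP factors, without a test between the families. NAC factors, which include regulators of ripening in tomato, had 157 of 318 unigenes tested, 2 higher (1.27%) and 18 lower (11.5%) at an unadjusted p below 0.05. The background was 4.31% lower. edgeR called 0 after adjustment, with a lowest adjusted p of 0.224. DESeq2 called 1 higher and 7 lower of the 157 at any fold, against 0.559% and 0.883% of all unigenes. Cluster-16487.145345 was at 1436, 1649 and 1689 FPKM in CO2 A, B and C and at 627, 520 and 1247 in CO2+1-MCP. The groups did not overlap, though the C library of CO2+1-MCP lay closer to CO2 (log2 fold change -0.98, SE 0.30, edgeR's adjusted p = 0.546). In CK it was at 24.8 to 26.9 FPKM. The most abundant NAC unigene, Cluster-16487.112994, was at 3183 to 3468 FPKM in CO2 and 1805 to 2972 in CO2+1-MCP (log2 fold change -0.27, SE 0.23). Counts summed over the NAC domain (PF02365) were 4690 CPM on average in CO2 and 3580 in CO2+1-MCP, without overlap, with a log2 fold change of -0.35 (SE 0.12, edgeR's adjusted p = 0.392). Without CO2 A and CO2+1-MCP B, NAC unigenes at an unadjusted p below 0.05 were 5 higher and 10 lower of 167.

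MADS-box factors (72 of 205 tested, 1 higher and 2 lower) and SBP factors (33 of 118 tested, 2 higher and 0 lower, a share of 6.06% higher) had few members at an unadjusted p below 0.05. The counts without CO2 A and CO2+1-MCP B were 2 higher and 1 lower of 77 MADS-box factors, and 0 and 0 of 35 SBP factors. SBP factors had 24 of 33 log2 fold changes above 0. The top MADS-box unigene, Cluster-16487.105591, was at 418 to 465 FPKM in CO2 and 420 to 487 in CO2+1-MCP. The top SBP unigene, Cluster-16487.128032, was at 26.6 to 36.2 and 22.6 to 26.8 FPKM. Carotenoid synthesis genes (37 of 94 tested) had 0 higher and 4 lower at an unadjusted p below 0.05, or 0 and 0 of 40 without CO2 A and CO2+1-MCP B, and the most abundant, beta-carotene hydroxylase Cluster-16487.117266, was at 1108 to 1368 FPKM in CO2 and 928 to 1393 in CO2+1-MCP. Among chlorophyll breakdown genes (23 of 51 tested, 1 higher and 3 lower, or 0 and 1 of 24 without those libraries), STAY-GREEN, which starts the removal of chlorophyll magnesium, was lower in all CO2+1-MCP libraries in both unigenes examined. Cluster-16487.111770 was at 296, 276 and 264 FPKM in CO2 and 175, 194 and 222 in CO2+1-MCP (log2 fold change -0.48, SE 0.18, edgeR's adjusted p = 0.641). In CK it was at 154 to 173 FPKM, below both groups. Cluster-16487.105038 was at 6.26, 6.28 and 6.30 FPKM in CO2 and 1.69, 1.73 and 2.64 in CO2+1-MCP, a log2 fold change of -1.61 (SE 0.29). Its adjusted p was 0.313 in edgeR with 6 libraries, 0.0371 with all 7 groups and 0.00241 in DESeq2. Its CK values, 10.8 to 12.8 FPKM, were above both groups, so the STAY-GREEN unigenes differed in their relation to CK. The most abundant ripening-named unigene, Cluster-16487.114655 (abscisic stress-ripening protein), was at 322 to 497 FPKM in CO2 and 283 to 344 in CO2+1-MCP.

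**Figure D2:**
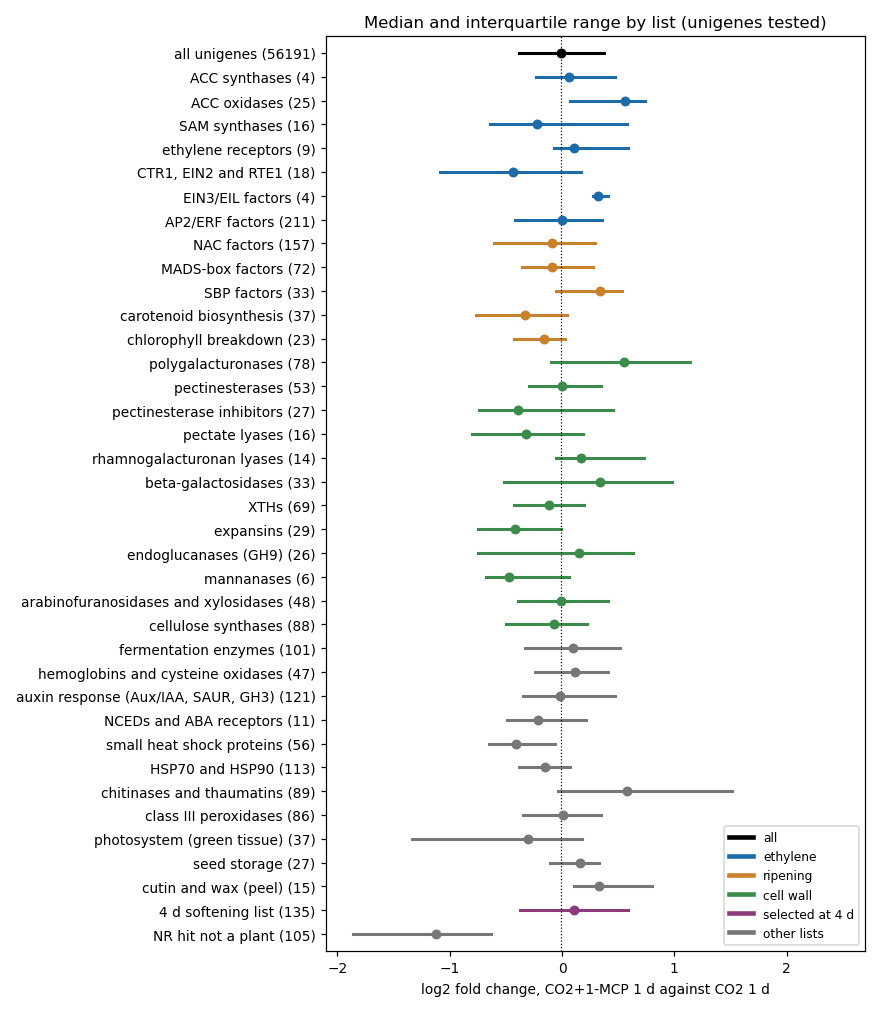
Median (point) and interquartile range (line) of the log2 fold change of CO2+1-MCP against CO2 at 1 d for the unigenes tested in each list with 4 or more of them, whose number is in brackets; the dotted line is the median of all unigenes tested, -0.01. ACC oxidases, polygalacturonases and chitinases and thaumatins have medians of 0.56, 0.55 and 0.58, and unigenes with an NR hit outside plants have a median of -1.12.

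Cell wall lists differed among themselves in direction. Polygalacturonases cut the pectin backbone, and 78 of 232 unigenes in the list were tested, 11 higher (14.1%) and 5 lower (6.41%) at an unadjusted p below 0.05. Leaving out CO2 A and CO2+1-MCP B gave 6 higher and 1 lower of 84. The name covers different proteins. The 8 tested unigenes with leucine-rich repeats and no catalytic GH28 domain, the structure known for polygalacturonase-inhibiting proteins, all had log2 fold changes above 0, with a median of 1.26 and 4 at an unadjusted p below 0.05, or 1 of 7 without CO2 A and CO2+1-MCP B. These include the most abundant one of the list, Cluster-16487.89770, a short unigene with 97 and 246 counts over the groups, at 163, 390 and 144 FPKM in CO2 and 686, 630 and 271 in CO2+1-MCP (log2 fold change 1.36, SE 0.56). The C library of CO2+1-MCP lay within the range of CO2. Cluster-16487.99208 of the same kind was at 69.8 to 96.8 FPKM in CO2 and at 161, 202 and 101 in CO2+1-MCP, without overlap (log2 fold change 1.02, SE 0.32, edgeR's adjusted p = 0.561). The 58 tested unigenes that carry the catalytic domain had 7 higher and 5 lower (5 and 1 of 64 without CO2 A and CO2+1-MCP B), and counts summed over that domain (PF00295) averaged 695 CPM in CO2 and 752 in CO2+1-MCP, which overlapped. The catalytic unigene Cluster-16487.117620 was at 81.5 to 119 FPKM in CO2 and 103 to 190 in CO2+1-MCP. The split by domain was made after the values had been seen.

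Pectinesterases remove methyl groups from pectin and are held back by pectinesterase inhibitors. Pectinesterases (53 of 108 tested) had 6 higher and 4 lower at an unadjusted p below 0.05 (3 and 0 of 52 without CO2 A and CO2+1-MCP B) and a median log2 fold change of 0.00, and the most abundant, Cluster-16487.109743, was at 4374 to 5061 FPKM in CO2 and 3052 to 4442 in CO2+1-MCP. Of the inhibitors 27 of 54 were tested, with 1 higher and 5 lower (18.5%) and a median of -0.39. In 12 of the 27 all CO2+1-MCP libraries were below all CO2 libraries, which held for 9.91% of all unigenes. The counts were 1 higher and 3 lower of 27 without CO2 A and CO2+1-MCP B. Cluster-16487.111720, among the most abundant transcripts in these libraries, was at 22435, 13494 and 15836 FPKM in CO2 and 8088, 10484 and 11084 in CO2+1-MCP (log2 fold change -0.77, SE 0.30, edgeR's adjusted p = 0.645). Its CO2+1-MCP values lay near those of CK, 8248 to 10461 FPKM. Cluster-16487.110597 was at 1103, 935 and 1026 FPKM in CO2 and 326, 409 and 653 in CO2+1-MCP (log2 fold change -1.11, SE 0.27, adjusted p of 0.42 in edgeR with 6 libraries, 0.532 with all 7 groups and 0.0157 in DESeq2).

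Expansins loosen the bonds between wall polymers without cutting them. Of 29 tested unigenes (69 in the list), 0 were higher and 5 lower (17.2%) at an unadjusted p below 0.05. In 10 of the 29 the groups did not overlap and CO2+1-MCP was lower, which held for 9.91% of all unigenes. The median log2 fold change was -0.42. The most abundant, Cluster-16487.112628 (expansin A4), was at 1122, 944 and 869 FPKM in CO2 and 620, 653 and 710 in CO2+1-MCP (log2 fold change -0.54, SE 0.21, edgeR's adjusted p = 0.644). Cluster-16487.110037 was at 515, 336 and 329 FPKM in CO2 and 192, 174 and 178 in CO2+1-MCP (log2 fold change -0.95, SE 0.30). Both were below CK in all 6 libraries, CK being at 2160 to 2983 and 700 to 912 FPKM. Without CO2 A and CO2+1-MCP B the median was -0.29 and 0 of 28 unigenes reached an unadjusted p of 0.05.

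Pectate lyase, another pectin-cutting enzyme, had 16 of 67 unigenes tested, 0 higher and 3 lower (18.8%), with a median log2 fold change of -0.32. Leaving out CO2 A and CO2+1-MCP B gave 1 higher and 2 lower of 20 and a median of -0.02. The summed FPKM overlapped, at 56.7, 77.6 and 74.4 in CO2 and 39.8, 43.3 and 114 in CO2+1-MCP. Cluster-16487.110990 was at 16.3, 16.2 and 15.0 FPKM in CO2 and 3.42, 3.84 and 7.67 in CO2+1-MCP, a log2 fold change of -1.66 (SE 0.33, adjusted p of 0.342 in edgeR with 6 libraries, 0.271 with all 7 groups and 0.00159 in DESeq2). Both groups were far below the 487 to 746 FPKM of CK. The mannanase Cluster-16487.129660 was at 43.0, 34.8 and 33.6 FPKM in CO2 and 15.6, 21.4 and 31.4 in CO2+1-MCP (log2 fold change -0.70, SE 0.29, edgeR's adjusted p = 0.666).

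In the other wall enzyme lists the most abundant unigene overlapped between the treatments. Endoglucanases of family GH9, which act on cellulose, had 2 higher and 5 lower (19.2%) of 26 tested at an unadjusted p below 0.05. Their median log2 fold change was 0.15, and their summed FPKM overlapped, at 5575 to 7213 in CO2 and 6648 to 10300 in CO2+1-MCP. Their top unigene Cluster-16487.110673 was at 1640 to 2510 FPKM in CO2 and 1948 to 3762 in CO2+1-MCP, while Cluster-16487.108772 was at 1424 to 1666 and 1857 to 2871 FPKM, without overlap (log2 fold change 0.66, SE 0.24). Beta-galactosidases had 0 higher and 2 lower of 33. The top one, Cluster-16487.116597, was at 539, 900 and 694 FPKM in CO2 and 1277, 2085 and 622 in CO2+1-MCP, with the C library apart from A and B. XTHs, which cut and rejoin xyloglucan, had 1 higher and 4 lower of 69, and Cluster-16487.95220 was at 464 to 497 FPKM in CO2 and at 797, 739 and 401 in CO2+1-MCP. Rhamnogalacturonan lyases had 0 higher and 0 lower of 14, with Cluster-16487.108831 at 27.2 to 32.9 and 22.4 to 32.3 FPKM. That unigene carries the lyase domain PF09284, but its NR hit is named DNA-binding protein like. Arabinofuranosidases and xylosidases had 4 higher and 2 lower of 48, with Cluster-16487.120373 at 18.4 to 33.3 and 20.8 to 51.2 FPKM. Cellulose synthases had 0 higher and 2 lower of 88, with Cluster-16487.89673 at 35.5 to 42.4 and 38.3 to 65.4 FPKM. It carries the cellulose synthase domain PF03552, but its NR hit is named as a protein phosphatase 1 regulatory subunit. When CO2 A and CO2+1-MCP B were left out, the counts higher and lower were 0 and 2 of 27 for endoglucanases, 1 and 1 of 38 for beta-galactosidases, 3 and 3 of 73 for XTHs, 1 and 3 of 51 for arabinofuranosidases and xylosidases, and 2 and 1 of 94 for cellulose synthases.

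**Figure D3:**
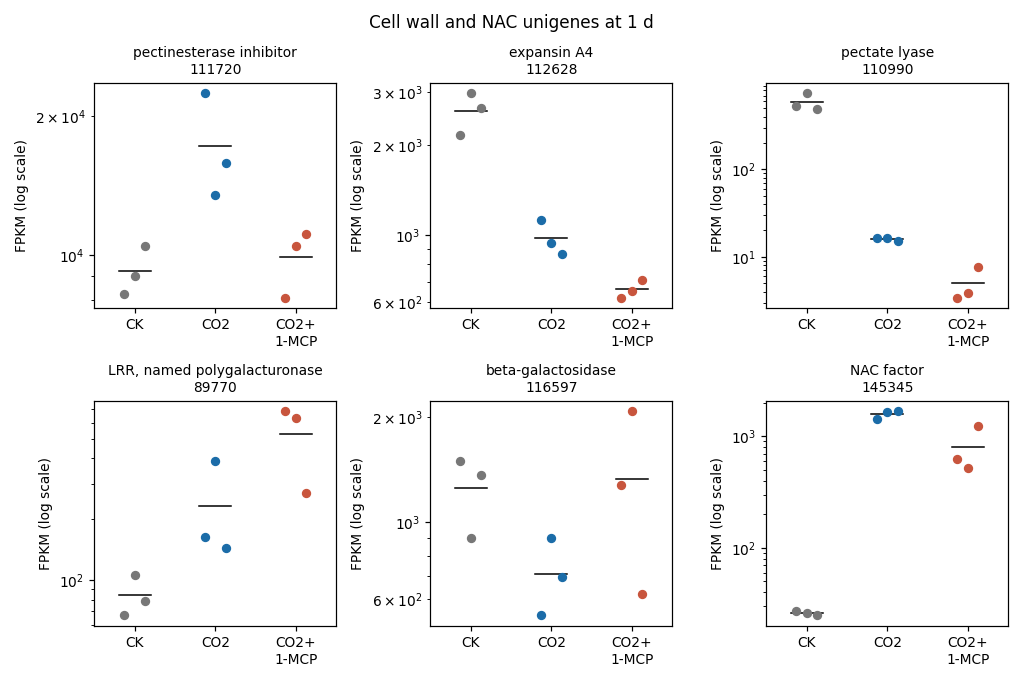
FPKM at 1 d (log axes) of 5 cell wall-related unigenes and 1 NAC unigene in CK, CO2 and CO2+1-MCP (points, libraries A, B and C from left to right; bars, mean, n = 3; numbers are those of the clusters). The pectinesterase inhibitor, expansin A4, pectate lyase and NAC unigenes are lower in all 3 CO2+1-MCP libraries than in all 3 CO2 libraries; the beta-galactosidase and the leucine-rich repeat unigene overlap.

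Counts were also summed by annotation, which joins the pieces of a gene where they share it. Of 17203 NR descriptions tested, edgeR called 1 at an adjusted p below 0.05 and a fold above 5 (0.00581%), DESeq2 called 64 (0.372%) and the fit of all 7 groups 16 (0.0721%). Class III chitinase (2 unigenes) fell 19.8-fold, from 16.8, 10.4 and 13.7 CPM in CO2 A, B and C to 0.543, 0.873 and 0.568 in CO2+1-MCP, near the 0.272 to 1.1 CPM of CK (log2 fold change -4.31, SE 0.36, edgeR's adjusted p = 0.0322). Most of it was Cluster-16487.204964, at 31.9, 19.5 and 25.9 FPKM in CO2 and 0.00, 0.00 and 0.41 in CO2+1-MCP. The call held in edgeR without CO2+1-MCP C (adjusted p = 0.0142) and was lost without any other single library (adjusted p from 0.0604 to 0.375), without CO2 A and CO2+1-MCP B (0.17) and in the fit of all 7 groups (0.0893). The log2 fold change was between -4.58 and -4.05 with single libraries left out. Cluster-16487.204964 carries the domain of glycosyl hydrolase family 18 (GH18, PF00704), whose summed counts went the other way (log2 fold change 1.27). Of 23 tested GH18 chitinases, a group set after the values were seen, 6 were higher (26.1%) and 1 lower (4.35%) at an unadjusted p below 0.05. The shares of all unigenes were 3.11% and 4.31%. Leaving out CO2+1-MCP C gave 78 calls among NR descriptions, and leaving out any other single library gave 0.

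Descriptions that belong to the ethylene lists (120 tested) had 15 higher (12.5%) and 10 lower (8.33%) at an unadjusted p below 0.05, against 4.77% and 6.16% of all descriptions. Those of the ripening lists (111 tested) had 3 higher (2.7%) and 15 lower (13.5%), and those of the cell wall lists (167 tested) had 9 higher (5.39%) and 17 lower (10.2%). In the fit of all 7 groups 2 descriptions of the ethylene lists were called lower and 1 of the ripening lists and 0 of the 3 kinds of list higher, against 0.153% and 0.0811% of all descriptions at any fold. These were ethylene response factor 19, STAY-GREEN, and an S-adenosylmethionine synthase at 0.751 to 1.28 CPM in CO2 and 0.0516 to 0.0603 in CO2+1-MCP. Each of these descriptions holds only 1 unigene, so that no pieces were joined. For STAY-GREEN it is Cluster-16487.105038, described above, while the more abundant Cluster-16487.111770 has a different description. Of the cell wall descriptions 0 were called in that fit or by edgeR with 6 libraries at any fold, while DESeq2 called 1 higher and 2 lower (0.61% and 1.31% of all descriptions).

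Of 4541 Pfam domains tested edgeR called 0 (0.0%, lowest adjusted p 0.317), with 508 at an unadjusted p below 0.05, 249 higher (5.48%) and 259 lower (5.70%), and 1 was called by DESeq2 (0.022%) and 1 by the fit of all 7 groups (0.0214%). Leaving out CO2+1-MCP C gave 1 call. Of 38 domains in the lists 24 matched a unigene and were tested, with 3 higher and 2 lower at an unadjusted p below 0.05. The higher ones were GH18 (PF00704), at 375 CPM on average in CO2 and 873 in CO2+1-MCP (log2 fold change 1.27, SE 0.22), class I chitinase (PF00182), at 42500 and 57900 CPM (0.48, SE 0.12), and the SBP domain (PF03110), at 208 and 262 CPM (0.39, SE 0.14). The lower ones were the NAC domain and HSP90 (PF00183), at 3440 and 2670 CPM (log2 fold change -0.32, SE 0.10). Their adjusted p was between 0.317 and 0.399 in edgeR. All 5 kept their sign without CO2 A and CO2+1-MCP B. AP2 (PF00847), pectinesterase (PF01095), GH9 (PF00759), GH16 (PF00722), cellulose synthase (PF03552) and rhamnogalacturonan lyase (PF09284) domains overlapped between the groups, with log2 fold changes between -0.23 and 0.43.

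Chitinases and thaumatins are pathogenesis-related proteins, which attack fungal walls and also accumulate in ripe fruit. Of 89 tested unigenes (287 in the list) 34 were higher (38.2%) and 4 lower (4.49%) at an unadjusted p below 0.05, and 39 were higher without overlap, against 5.98% of all unigenes. The fit of all 7 groups called 6 higher and 0 lower at any fold (0.0341% of all unigenes were called higher and 0.0308% lower). DESeq2 called 23 higher and 2 lower of the 89 at any fold, against 0.559% and 0.883% of all unigenes. Without CO2 A and CO2+1-MCP B the unadjusted counts were 34 higher and 2 lower of 94. Among thaumatins alone 16 of 27 were higher, with a median log2 fold change of 1.51. The summed FPKM of the list was 191758 to 199117 in CO2 and 269963 to 351610 in CO2+1-MCP, both far below the 1248916 to 1398757 of CK.

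The thaumatin Cluster-16487.111128 was at 2106, 2204 and 1953 FPKM in CO2 A, B and C and at 5597, 5794 and 6414 in CO2+1-MCP. The means were 2088 ± 127 and 5935 ± 426 FPKM (SD, n = 3), a log2 fold change of 1.64 (SE 0.16). Its adjusted p was 0.194 in edgeR with 6 libraries, 0.00349 with all 7 groups and 4.61e-23 in DESeq2. A second one, Cluster-16487.111134, was at 2530 to 3458 FPKM in CO2 and 8558 to 8850 in CO2+1-MCP (log2 fold change 1.55, SE 0.22, adjusted p of 0.225 with 6 libraries and 0.0444 with all 7 groups). The chitinase Cluster-16487.110134 was at 1625, 1844 and 1473 FPKM in CO2 and 5561, 7266 and 4833 in CO2+1-MCP (log2 fold change 2.02, SE 0.23, adjusted p of 0.194 with 6 libraries and 0.0389 with all 7 groups). The most abundant chitinase, Cluster-16487.111174, was at 77383, 81220 and 91111 FPKM in CO2 and 98660, 104148 and 146768 in CO2+1-MCP (log2 fold change 0.59, SE 0.22). In all 4 the values with 1-MCP lay between those of CO2 and the far higher ones of CK.

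A related pair, named for the size of the difference, had a wider spread. Cluster-16487.116177, a beta-1,3-glucanase, was at 8.42, 18.2 and 10.5 FPKM in CO2 and 80.7, 89.3 and 24.4 in CO2+1-MCP (log2 fold change 2.47, SE 0.56, edgeR's adjusted p = 0.385). Cluster-16487.110805, a PR-1 protein, was at 182 to 294 FPKM in CO2 and at 1310, 1659 and 540 in CO2+1-MCP (log2 fold change 2.43, SE 0.45, edgeR's adjusted p = 0.32). In both the C library of CO2+1-MCP was the lowest of its group, and CK (86.4 to 397 and 894 to 3802 FPKM) overlapped the CO2+1-MCP values.

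Pyruvate decarboxylases and small heat shock proteins were far above CK in summed FPKM with both treatments. Pyruvate decarboxylase makes acetaldehyde, which removes soluble tannin. Of its 30 tested unigenes 8 were higher (26.7%) and 1 lower before adjustment (p below 0.05). Leaving out CO2 A and CO2+1-MCP B gave 4 higher and 0 lower of 31. Cluster-16487.93437, a persimmon pyruvate decarboxylase 2, was at 913, 1187 and 1139 FPKM in CO2 and 1517, 1248 and 1630 in CO2+1-MCP (log2 fold change 0.47, SE 0.17, adjusted p of 0.616 in edgeR with 6 libraries, 0.905 with all 7 groups and 0.00335 in DESeq2). CK was at 23.3 to 30.8 FPKM. Cluster-16487.93178, a pyruvate decarboxylase unigene with higher means, was at 1254, 1549 and 1633 FPKM in CO2 and 3512, 3088 and 1618 in CO2+1-MCP. Its C library of CO2+1-MCP lay within the range of CO2 (log2 fold change 0.99, SE 0.32, edgeR's adjusted p = 0.562). Alcohol dehydrogenases had 3 higher and 5 lower of 64, with a median log2 fold change of 0.01, or 2 and 1 of 66 without CO2 A and CO2+1-MCP B. Lactate dehydrogenases had 0 higher and 0 lower of 7. Small heat shock proteins had 0 higher and 8 lower (14.3%) of 56, and Cluster-16487.108483 was at 5850, 4184 and 5328 FPKM in CO2 and 3365, 2726 and 3296 in CO2+1-MCP, against 159 to 271 in CK (log2 fold change -0.58, SE 0.19, edgeR's adjusted p = 0.59). Without CO2 A and CO2+1-MCP B the median of the small heat shock proteins went from -0.41 to -0.12, and 0 of 55 reached an unadjusted p of 0.05.

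**Figure D4:**
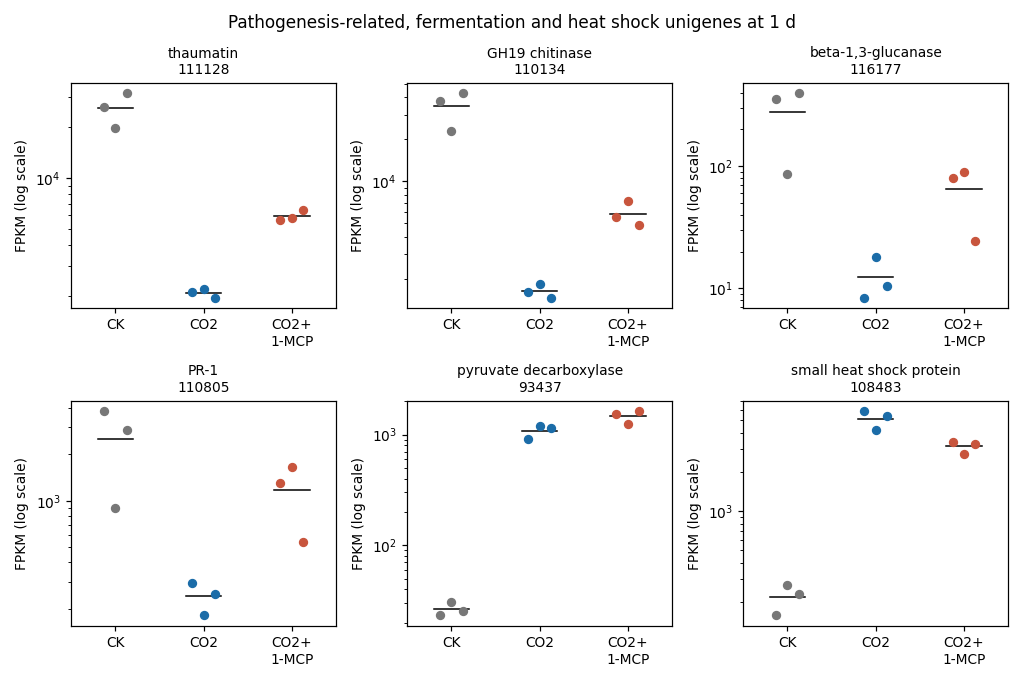
FPKM at 1 d (log axes) of 4 pathogenesis-related unigenes, 1 pyruvate decarboxylase and 1 small heat shock protein in CK, CO2 and CO2+1-MCP (points, libraries A, B and C from left to right; bars, mean, n = 3; numbers are those of the clusters). The thaumatin is at 1953 to 2204 FPKM with CO2, 5597 to 6414 with CO2+1-MCP and 19863 to 31807 in CK; the pyruvate decarboxylase and the heat shock protein are lowest in CK.

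Of the 16 unigenes named by the size of their difference, 3 were called in the fit of all 7 groups. Cluster-16487.42256, an Aux/IAA protein (a repressor of auxin response), had no count in any CO2 library and was at 9.23, 17.3 and 8.39 FPKM in CO2+1-MCP, at least 69.6-fold higher against a floor of 3 counts over the CO2 group, and at 7.64 to 10.4 FPKM in CK (adjusted p of 0.224 with 6 libraries and 0.00349 with all 7 groups). Cluster-16487.105697, a hypothetical protein, was at 0.65, 1.46 and 2.80 FPKM in CO2 and 20.4, 27.8 and 6.23 in CO2+1-MCP (adjusted p of 0.344 with 6 libraries and 0.0344 with all 7 groups). Cluster-16487.177893, the large subunit of Rubisco encoded in the chloroplast, was at 41.1, 22.8 and 32.7 FPKM in CO2 and 0.83, 0.88 and 3.43 in CO2+1-MCP, against 0.23 to 0.77 in CK (log2 fold change -4.23, SE 0.61, adjusted p of 0.228 with 6 libraries and 0.0199 with all 7 groups). The others were below an unadjusted p of 0.05 in edgeR without being called by it. A pair of unigenes with the same name, FQR1-like quinone reductase, had opposite differences. Cluster-16487.101578 was at 0.00 to 0.20 FPKM in CO2 and 10.9 to 17.9 in CO2+1-MCP, and Cluster-16487.114536 was at 10.1 to 13.3 and 0.00 to 0.29 FPKM. Both varied widely within other groups. Cluster-16487.101578 was at 0.64, 5.83 and 16.9 FPKM in CK at 1 d, and Cluster-16487.114536 at 0.21, 47.8 and 15.0 in CO2 at 4 d.

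Also higher in all CO2+1-MCP libraries were Cluster-16487.28674 (a DUF962 protein, 6.65 to 26.6 FPKM against 0.00 to 0.60), Cluster-16487.59926 (a lectin receptor-like kinase, 5.22 to 14.4 against 0.00 to 2.80) and Cluster-16487.112389 (a hypothetical protein, 61.0 to 150 against 6.51 to 23.4). Cluster-16487.112389 had only 8 counts over CO2 and 69 over CO2+1-MCP, and was at 72.7 to 328 FPKM in CK. It carries the Pfam domain PF00016, as do the Rubisco unigenes Cluster-16487.177893 and Cluster-16487.177891, which were lower in CO2+1-MCP. Lower in all were Cluster-16487.126676 (a vesicle-associated membrane protein, without a count in CO2+1-MCP and at 0.88 to 18.8 FPKM in CO2), Cluster-16487.200475 (no NR hit, without a count in CO2+1-MCP and at 8.90 to 15.0 in CO2), Cluster-16487.52146 (an EF-hand calcium-binding protein, 0.00 to 0.06 against 9.67 to 37.7), Cluster-16487.84966 (a hypothetical protein, 20.1 to 102 against 578 to 1011) and Cluster-16487.177891 (a chloroplast Rubisco hit, 0.54 to 3.53 against 16.7 to 26.4). For the pair without a count the CO2 levels were at least 251-fold and at least 75.4-fold higher against the same floor over the CO2+1-MCP group. The first of them, Cluster-16487.126676, also varied widely within groups. At 4 d it was at 0.0, 12.1 and 0.0 FPKM in CO2 A, B and C and at 17.3, 18.9 and 0.0 in CO2+1-MCP.

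Chloroplast and non-plant sequences differed along with the groups. Of 41 tested unigenes whose NR hit is marked as chloroplast, 22 were lower (53.7%) and 1 higher at an unadjusted p below 0.05 (17 and 1 of 46 when CO2 A and CO2+1-MCP B were left out), with summed FPKM of 168 to 224 in CO2, 66.9 to 87.8 in CO2+1-MCP and 65.3 to 75.4 in CK. Photosystem unigenes as a whole had 0 higher and 8 lower of 37 (0 and 6 of 39 without those libraries), and their sums overlapped (289 to 324 FPKM in CO2, 233 to 292 in CO2+1-MCP). Of 105 tested unigenes with an NR hit outside plants 34 were lower (32.4%) and 0 higher, or 15 lower and 1 higher of 112 without CO2 A and CO2+1-MCP B, with sums of 1109 to 1732 FPKM in CO2, 483 to 943 in CO2+1-MCP and 160 to 183 in CK. Seed storage (388 to 546 and 409 to 583 FPKM) and cutin and wax genes (81.9 to 91.9 and 69.1 to 128) overlapped. The part of these sequences in the other results was not tested, except that without the non-plant hits edgeR again called 0 unigenes (4134 at an unadjusted p below 0.05). In flesh as a whole, fewer cells of a type and less RNA per cell cannot be told apart.

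The unigenes that the study selected on the 4 d libraries were then read at 1 d, in libraries that the selection did not use. Of these, 135 were tested at both days. At 1 d 58 of the 135 were below a log2 fold change of 0, 8 were below -1 and 13 above 1, and their median was 0.11 (all unigenes -0.01). At an unadjusted p below 0.05, 16 were higher (11.9%) and 15 lower (11.1%), against 3.11% and 4.31% of all unigenes, or 13 and 7 of 137 when CO2 A and CO2+1-MCP B were left out. At 4 d all 135 were below -1. The study selected them on those libraries at a fold above 5, so the 4 d values are not independent of the selection. The FPKM of the whole list at 1 d summed to 4681 to 5377 in CO2 and 5084 to 5604 in CO2+1-MCP, which overlapped.

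**Figure D5:**
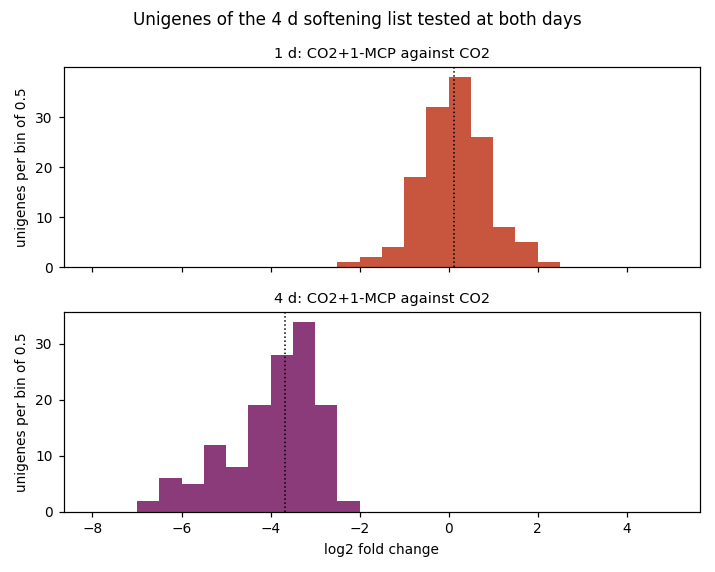
Histograms of the log2 fold change of CO2+1-MCP against CO2 at 1 d (upper) and 4 d (lower) for the 135 unigenes of the list selected at 4 d that were tested at both days; dotted lines are medians. At 1 d the values lie around 0, with 8 below -1. At 4 d all are below -1, in the libraries on which they were selected.

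The difference between the effects of 1-MCP at the 2 days was tested as an interaction with 12 libraries. It was called for 21 of 77447 unigenes (0.0271%), and 3 of these are cell wall genes of the lists: a rhamnogalacturonate lyase and a pair of expansin A1 unigenes. The lyase Cluster-16487.16332 was at 0.23 to 1.03 FPKM in CO2 and 0.44 to 1.24 in CO2+1-MCP at 1 d, and at 1259, 586 and 404 FPKM in CO2 and 9.49, 11.8 and 8.50 in CO2+1-MCP at 4 d. The expansin Cluster-16487.137674 was at 2.84 to 5.82 and 3.25 to 7.14 FPKM at 1 d, and at 539 to 2171 and 12 to 21.2 at 4 d. At 1 d the groups overlapped in both, and at 4 d they did not. The count of 21 depended on single libraries: it was 260 without CO2 4 d C, 54 without CO2 4 d A, 51 without CO2+1-MCP 1 d C and 0 to 3 without any other single library.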

How the data were processed

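RNA-seq libraries of persimmon flesh (21 libraries, 7 groups of 3) were made by the authors, who assembled the reads de novo with Trinity into unigenes. The deposited expected counts per unigene were not normalized, and RSEM, named in the submitters' processing notes, has no version in the sources used here. The deposited FPKM values (scaled by unigene length and library size) were computed by the authors and used here for levels only. The deposited annotation gave NR hits and Pfam IDs. 14 of 38 listed Pfam IDs matched no unigene in the annotation used here.

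Expected counts were rounded and tested with edgeR 4.0.16 (R 4.3.3; filterByExpr, TMM, quasi-likelihood F test, Benjamini-Hochberg adjustment over all features), on the 6 libraries of the comparison. A feature was called at an adjusted p below 0.05 and a fold above 5, as the study's methods set them. The same test was run on counts summed by NR description and by Pfam ID (a unigene with several IDs entered each); CPM are relative to the library total. The effects at 1 d and 4 d were compared as an interaction over 12 libraries. SE is the log2 fold change divided by the square root of F. Fits were checked on simulated counts. Data were handled with Python 3.11.15, data.table, numpy 2.4.6 and pandas 2.3.3, and drawn with matplotlib 3.10.9.

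Named unigenes were the 8 highest and 8 lowest log2 fold changes with a mean of at least 10 FPKM in a group and no overlap between libraries, taken from called unigenes, then from the fit of all 7 groups, then from an unadjusted p below 0.05. Added to these were the most abundant member of each ethylene, ripening and cell wall list, and all persimmon ACC synthase, ACC oxidase and receptor unigenes with at least 1 FPKM. NR descriptions were named if called, and all listed Pfam IDs were read. The other unigenes of the cell wall, NAC, EBF, STAY-GREEN, chitinase, thaumatin, pyruvate decarboxylase, heat shock and interaction paragraphs, and NR descriptions that were not called, were chosen after their values were seen. All members and lists were chosen with earlier results of these data known. The unigenes selected at 4 d were taken by ID from the study's supplement, without its values.

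Alternatives were DESeq2 1.42.0, RLE factors, testing unigenes with low counts too, a single fit of all 7 groups, a replicate block, robust dispersions, other fold limits, leaving out non-plant hits and leaving out each library. A fit without CO2 A and CO2+1-MCP B was added after seeing the data. P-values measure the spread between 3 libraries per group.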

Additional observations from a re-analysis of the deposited data

Results flagged for a closer look

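In 3 cell wall unigenes the effect of 1-MCP within CO2 at 1 d differed from that at 4 d by edgeR's interaction test. The difference (log2 effect at 1 d minus that at 4 d) was 6.98 (SE 0.85) for the expansin A1 unigene Cluster-16487.137674, 6.52 (SE 0.83) for Cluster-16487.137675, a second expansin A1, and 7.27 (SE 0.94) for the rhamnogalacturonate lyase Cluster-16487.16332. The adjusted p was 0.0423 for each. These calls were lost with a replicate block and without CO2 4 d B, CO2 1 d B, CO2 1 d C, CO2+1-MCP 1 d A, CO2+1-MCP 1 d B, CO2+1-MCP 4 d A or CO2+1-MCP 4 d C, where 0 unigenes were called with a positive difference. Only 2 unigenes were called with a positive difference without CO2 1 d A, and only 1 without CO2+1-MCP 4 d B. Not all 3 calls can therefore have held in either of these fits. At 1 d the log2 fold changes were 0.48, 0.41 and 0.70, with overlapping libraries, and at 4 d they were -6.40, -5.99 and -6.46. The expansins have neighbouring cluster numbers and may be pieces or copies of a single gene. Cluster-16487.137674 is also in the list that the study selected on the 4 d libraries.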

How the results depend on the processing

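The count of unigenes called went from 0 to 291 with DESeq2, 36 with all 7 groups in one fit and 938 without a filter on low counts, and stayed at 0 under RLE factors, robust dispersions, other fold limits, without non-plant hits and without any single library. For NR descriptions 1 call became 64 with DESeq2, 16 with all 7 groups, 26 without the filter, 0 without CO2 A and CO2+1-MCP B and 0 to 78 with single libraries left out. Pfam IDs went from 0 to 1 with DESeq2 and with all 7 groups, and to between 0 and 1 with single libraries left out. The interaction count went from 21 to 1406 with DESeq2, 476 with all 7 groups and 0 to 260 with single libraries left out. The cause of these differences was not tested.

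Libraries of the same letter correlated at -0.113 (A), -0.049 (B) and 0.135 (C) in their deviations from the group means, so the letters were not taken as pairs. With a replicate block edgeR called 0 unigenes (3042 at an unadjusted p below 0.05), 0 NR descriptions and 0 Pfam IDs, and 1 unigene in the interaction. Class III chitinase then had a log2 fold change of -4.28 (adjusted p = 0.0899).

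Signs that turned when single libraries were left out all belonged to values that were not called. The log2 fold changes then ranged from -0.12 to 0.13 for Cluster-16487.105591, -0.29 to 0.12 for Cluster-16487.108831 and for Cluster-16487.117266, -0.2 to 0.28 for Cluster-16487.29840, -0.42 to 0.2 for Cluster-16487.5077, -0.1 to 0.34 for Cluster-16487.72821 and -0.15 to 0.26 for Cluster-16487.75502. For Pfam IDs they ranged from -0.12 to 0.22 (PF00042), -0.17 to 0.03 (PF00319), -0.25 to 0.31 (PF01277), -0.05 to 0.01 (PF02309), -0.31 to 0.05 (PF03552) and -0.04 to 0.19 (PF09284). PF02519, at 0.0 with 6 libraries, ranged from -0.11 to 0.18. Cluster-16487.5077 was at 0.22 without CO2 A and CO2+1-MCP B. Totals of 14644843 to 19380375 counts leave unigenes with few counts, such as the ACC synthases, with wide errors.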
